A study of Homo sapiens with 6 samples.

Results

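A set of 10 genes known to modify how BRCA1-deficient cells respond to PARP inhibitors was followed in RNA-seq of UWB1.289 cells after knockdown of the acetyltransferase HBO1. The set holds TP53BP1, RIF1, MAD2L2, SHLD1, SHLD2, PARP1, PARG, POLQ, DYNLL1 and SLFN11, named for their known roles and not by a measured value. All 10 of 10 were present among the 26967 named genes of the table, and all 10 passed the filter of a mean of at least 10 normalized counts that left 15173 genes for testing. The 3 shHBO1 libraries came from UWB1.289 cells transduced with lentivirus carrying a hairpin against HBO1, the protein of the gene KAT7. The 3 shCTRL libraries came from the same cells transduced with a control hairpin. Cells of both groups received polybrene at 10 µg/mL and, from 96 h, puromycin at 1 to 3 µg/mL, and both groups share the BRCA1-deficient background of this ovarian carcinoma line. The labels give neither the number of hairpins nor separate cultures for the replicates, so the p-values cover library-to-library spread alone and part of that spread may be technical. In bulk RNA, fewer cells expressing a gene and less of its RNA per cell cannot be told apart. No PARP inhibitor treatment is named in the labels.

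When BRCA1 is lost, broken DNA ends are less well resected and repaired by homologous recombination, and the cells become sensitive to drugs that trap PARP enzymes on DNA. The protein 53BP1, encoded by TP53BP1, gathers at breaks and recruits RIF1 and then shieldin, a complex of MAD2L2 (also called REV7), SHLD1, SHLD2 and SHLD3 that shields the ends from resection. Loss of a member of this axis is known to restore resection in BRCA1-deficient cells and to lower their response to PARP inhibitors, and loss of PARG or SLFN11 is also known to lower that response. POLQ encodes polymerase theta, which joins ends by short homologies and on which cells without homologous recombination come to depend.

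The knockdown was read first in KAT7 itself. KAT7 had 1008, 872 and 784 normalized counts in shHBO1 libraries 1, 2 and 3, against 3616, 3952 and 3554 in shCTRL libraries 1, 2 and 3. A normalized count is a read count divided by 1 size factor per library. KAT7 fell to 23.9% of its control mean, with a log2 fold change of -2.07 (limma adjusted p = 0.00123). An exact two-sided permutation test over libraries gave p = 0.1, the smallest p for 3 against 3. By limma, KAT7 was the only one of 15173 tested genes past an adjusted p of 0.05, a background of 0.00659%. Libraries held 35940400 to 39908703 recovered reads. All 8 epithelial markers fixed for the check were detected at 1517 or more normalized counts in each library, and PAX8 of the ovarian serous lineage ranged from 8001 to 11302. WT1 of that lineage was nearly absent, at 0 to 26.2. Its other markers lay in between, such as FOLR1 at 28.9 to 95.5 and MSLN at 1454 to 2841. The 8 ovarian serous markers together summed to 13893 to 18239 in shHBO1 and 14893 to 20066 in shCTRL. Among markers of other cells, DCN and RBFOX3 were at 0 in each library. The 5 leukocyte markers together summed to 518 to 683 in shHBO1 and 513 to 654 in shCTRL, most of it CD68, and CD3E had at most 1.87 in any library. The 7 fibroblast and endothelial markers summed to 1489 to 1824 in shHBO1 and 1391 to 2152 in shCTRL, and the 4 neural markers to 723 to 1104 in shHBO1 and 789.7 to 1072 in shCTRL. COL1A1 (502 to 895), CDH5 (674 to 1232) and the neural marker MAP2 (644 to 995) were clearly detected in each library.

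None of the 10 genes passed the test between shHBO1 and shCTRL. Each had a limma adjusted p of 0.9999 over all tested genes, and 0 of 10 reached an unadjusted p under 0.05, against 3.55% of all tested genes. By edgeR (0.00659% of all genes called), DESeq2 (0.145%), DESeq2 with the replicate number as a block (1.03%) and limma with that block (0.125%) the count of genes called among the 10 was also 0. The estimate was above 0 for 4 of the genes and below 0 for 6, with a median log2 fold change of -0.0139 beside 0.000129 for all tested genes. The median absolute log2 fold change was 0.0932 for the 10 genes and 0.0931 for all tested genes. For 9 of the 10, all but SLFN11, the 95% confidence interval left out a 2-fold change in either direction. With the replicate number as a block, the SLFN11 interval also left out a 2-fold change. Without the block, for 8 genes, all but SLFN11 and SHLD1, it also left out a 1.5-fold change. The values therefore bound the mRNA differences and do not show that they are 0.

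**Figure D1:**
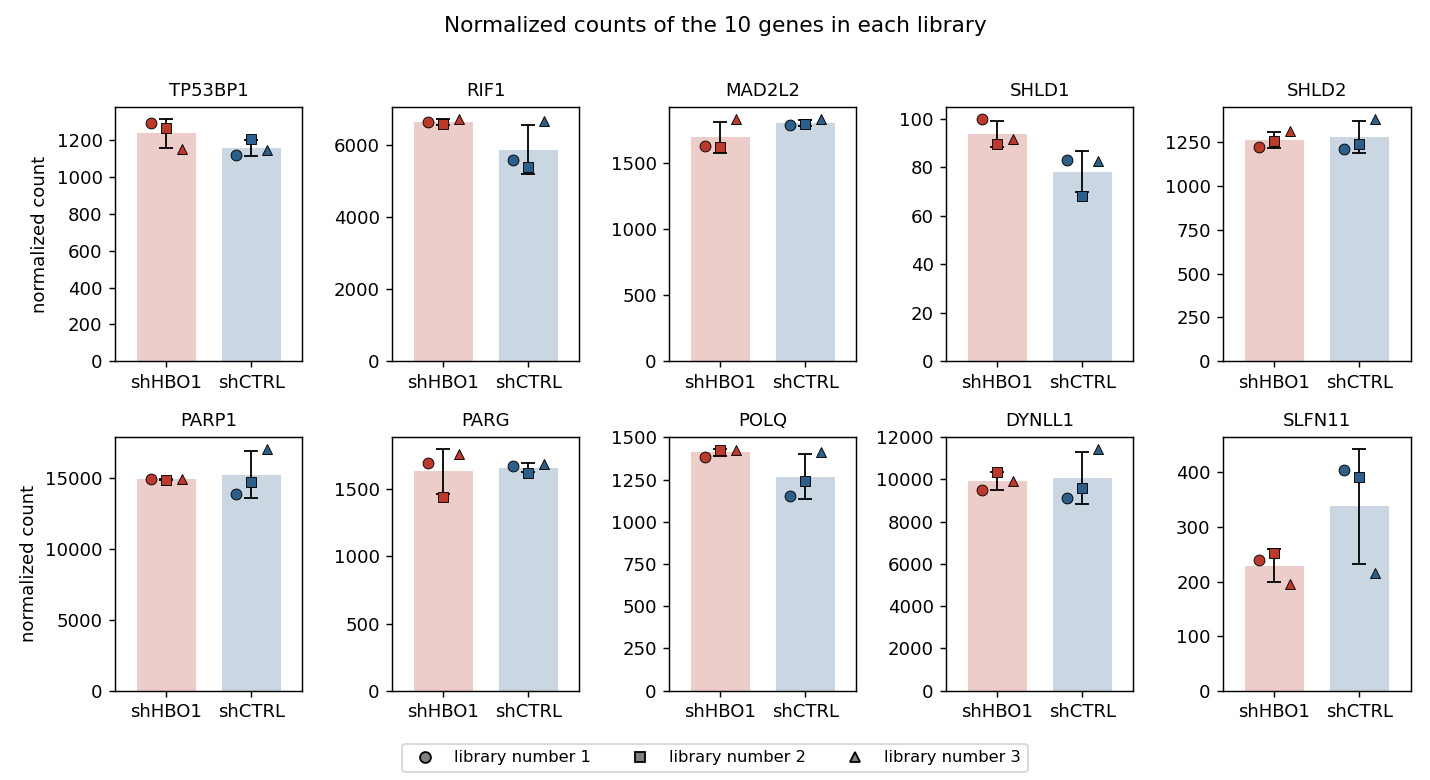
Normalized counts of the 10 genes in each library (vertical axes start at 0), with shHBO1 left of shCTRL in each panel. Bars are means, error bars are SDs (n = 3 libraries) and symbols mark the library number. For SLFN11 the number 3 control lies at 216, beside 405 and 392 in the other controls, and for SHLD1 the 3 shHBO1 values lie above the 3 shCTRL values.

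PARG and SHLD2 have near-identical copies elsewhere in the genome, and SLFN11 has a more diverged paralog that shares some stretches. This bears on what their counts hold, so examples are shown before the values. PARG, for the enzyme that removes poly(ADP-ribose), has the pseudogene PARGP1 on the same chromosome. Their GENCODE transcripts were identical at 2260 of 2286 aligned bases (98.9%), and 28.8% of all 50-base windows of the PARG transcript also occurred in PARGP1. SHLD2 has the pseudogenes SHLD2P1 and SHLD2P3, identical at 98.6% and 98.7% of aligned bases, and 52.9% of its windows occurred in another gene. SLFN11 and its neighbour SLFN13 were identical at 88.8% of aligned bases, and 12.4% of the SLFN11 windows occurred in SLFN13. Coding stretches of 60 bases from PARG, SHLD2 and SLFN11 follow, each with the aligned stretch of its copy, 5′ to 3′, with the bases that differ in capitals. Each is the first such stretch whose first difference lay near its middle. They lie on GRCh38 at chr10:49941611-49941670 (PARG, minus strand), chr10:45972040-45972099 (PARGP1, minus strand), chr10:87151357-87151416 (SHLD2, plus strand), chr10:47689709-47689768 (SHLD2P3, plus strand), chr17:35363715-35363774 (SLFN11, minus strand) and chr17:35445588-35445647 (SLFN13, minus strand).
PARG: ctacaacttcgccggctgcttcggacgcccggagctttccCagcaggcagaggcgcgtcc
PARGP1: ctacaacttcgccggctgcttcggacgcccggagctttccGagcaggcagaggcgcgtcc
SHLD2: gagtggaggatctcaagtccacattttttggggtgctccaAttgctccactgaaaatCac
SHLD2P3: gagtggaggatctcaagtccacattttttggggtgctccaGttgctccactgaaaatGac
SLFN11: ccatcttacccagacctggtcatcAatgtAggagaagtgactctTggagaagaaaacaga
SLFN13: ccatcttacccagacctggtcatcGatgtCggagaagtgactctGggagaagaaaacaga
The PARG pair differed at 1 base of 60, the SHLD2 pair at 2 and the SLFN11 pair at 3. Windows of TP53BP1 were shared too: 33.4% of the 50-base windows of its longest transcript occurred in TUBGCP4, a gene that overlaps its end on the opposite strand. PARP1 shared 4.48% and RIF1 0.495% of windows with other genes, and MAD2L2, SHLD1, POLQ and DYNLL1 shared 0. The sources used here do not state how reads that match several genes were counted, so the PARG, SHLD2, SLFN11 and TP53BP1 values carry that uncertainty. The counts of PARGP1, SHLD2P1, SHLD2P3 and SLFN13 carry it too, so a low count of a copy does not show that it adds little.

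Among the recruiting proteins, TP53BP1, the chromatin reader at the head of the axis, had 1296, 1268 and 1150.3 normalized counts in shHBO1 libraries 1, 2 and 3, against 1120.3, 1206 and 1148 in shCTRL libraries 1, 2 and 3. The groups overlapped, since the third shHBO1 library lay within the control range. TP53BP1 averaged 1238 ± 77.3 in shHBO1 and 1158 ± 43.8 in shCTRL (SD, n = 3 each), a log2 fold change of 0.09 (SE 0.087, 95% confidence interval -0.11 to 0.30). TUBGCP4, which shares its windows, averaged 902 ± 20.6 in shHBO1 and 963 ± 27.8 in shCTRL.

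RIF1, the effector that binds phosphorylated 53BP1 and also sets replication timing, had 6620.3, 6564 and 6710.5 normalized counts in the shHBO1 libraries. The shCTRL libraries had 5572, 5372 and 6654. Libraries 1 and 2 of the control were lower than each shHBO1 library, while control library 3 lay among the shHBO1 values. On the log2 scale the difference was 0.18 (SE 0.091, interval -0.027 to 0.39), a fold of 1.14 with an interval of 0.982 to 1.31. Spread between libraries was uneven, at a coefficient of variation of 1.11% in shHBO1 and 11.8% in shCTRL. Without shCTRL library 3 the estimate was 0.28 (limma adjusted p = 0.220), 1.5 times the estimate over 6 libraries, and it did not pass. That limma fit gave an unadjusted p under 0.05 to 2281 of 15173 genes, beside 538 over 6 libraries.

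Among the shieldin subunits, MAD2L2, the HORMA-domain subunit that also serves polymerase zeta, had 1631, 1624 and 1829.6 normalized counts in shHBO1, against 1786, 1793 and 1832 in shCTRL. The third shHBO1 library reached the control range, giving an estimate of -0.09 on the log2 scale (SE 0.080, interval -0.28 to 0.095). SHLD2, the subunit that binds single-stranded DNA, had 1222, 1255 and 1312 in shHBO1, against 1211, 1242 and 1382 in shCTRL. Its groups overlapped throughout, with a log2 fold change of -0.015 (SE 0.088, 95% confidence interval -0.22 to 0.19). The SHLD2 copies were low beside it, with 3.71 ± 5.63 in shHBO1 and 0 in shCTRL for SHLD2P1, and 31.2 ± 25.8 in shHBO1 and 32.3 ± 16.7 in shCTRL for SHLD2P3.

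SHLD1, the small subunit that binds SHLD2, was the one member whose groups did not overlap, a separation found in 8.93% of tested genes (4.49% with shHBO1 higher and 4.44% with shHBO1 lower). It had 99.98, 89.6 and 91.7 normalized counts in shHBO1, against 83.3, 68.4 and 82.8 in shCTRL. Each shHBO1 library lay above each control library, but by little at this depth of 88 to 107 reads in shHBO1 and 73 to 82 in shCTRL. The log2 estimate of 0.26 (SE 0.19, interval -0.17 to 0.70) did not pass (limma adjusted p = 0.9999). SHLD3, named here through the GENCODE match of a single non-coding RefSeq record, averaged 104 ± 11.9 in shHBO1 and 109 ± 35.8 in shCTRL.

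PARP1, the main enzyme that writes poly(ADP-ribose) at DNA breaks and the chief target that PARP inhibitors trap, was the most counted of the 10 genes. It had 14933, 14874 and 14963 normalized counts in shHBO1, against 13909, 14724 and 17082 in shCTRL. The shHBO1 libraries lay close together inside the wider control range, with coefficients of variation of 0.303% in shHBO1 and 10.8% in shCTRL. The log2 fold change was -0.025 (SE 0.086), and the interval of the fold ran from 0.856 to 1.13.

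PARG removes the chains that PARP1 makes. It had 1694, 1441 and 1762 normalized counts in shHBO1, against 1669.7, 1624 and 1686 in shCTRL. Here the spread was wider in shHBO1, whose second library was the lowest of the 6, and the groups overlapped. The log2 fold change was -0.029 (SE 0.095, fold interval 0.841 to 1.14). PARGP1, the copy that differs by few bases, had 102, 148 and 98.4 in shHBO1, against 54.8, 68.4 and 101 in shCTRL, and averaged 4.50% of the PARG level in shCTRL. Its log2 fold change of 0.65 did not pass (95% confidence interval -0.0029 to 1.30). The ratio of PARG to PARP1 counts, which needs no scaling between libraries, was 11.3%, 9.69% and 11.8% in shHBO1, against 12%, 11.03% and 9.87% in shCTRL. The log2 ratio differed by -0.0047 between groups (exact two-sided permutation p = 1, where 0.1 is the smallest p for 3 against 3). This value rested on single libraries, since it was 0.080 without shHBO1 library 2, 0.063 without shCTRL library 1 and -0.078 without shCTRL library 3.

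**Figure D2:**
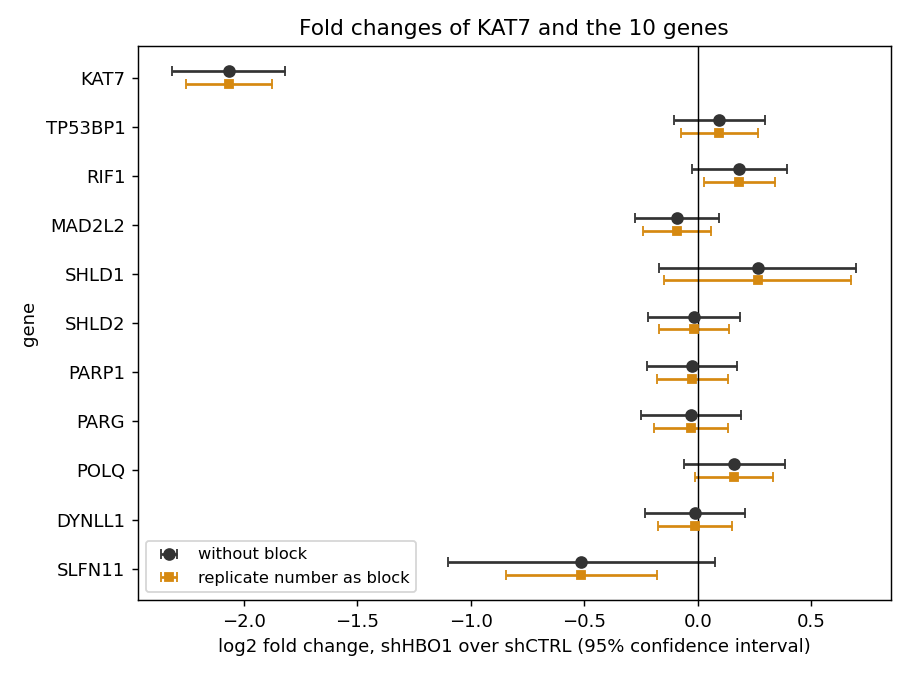
Log2 fold changes of KAT7 and the 10 genes (horizontal axis, shHBO1 over shCTRL) with 95% confidence intervals from limma, without a block (circles) and with the replicate number as a block (squares). KAT7 lies at -2.07, and the unblocked interval of each of the 10 genes includes 0, while the blocked intervals of RIF1 and SLFN11 leave it out.

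POLQ, for polymerase theta, had 1387, 1424 and 1425 normalized counts in shHBO1, against 1152, 1240.0 and 1413 in shCTRL. Controls 1 and 2 were below all shHBO1 values, while control 3 lay among them, the same placing as for RIF1. The log2 fold change was 0.16 (SE 0.096, fold interval 0.957 to 1.30). Without shCTRL library 3 it was 0.24 (limma adjusted p = 0.268) and without shCTRL library 1 it was 0.093, and it passed in neither case.

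DYNLL1, the dynein light chain that binds 53BP1 and limits resection through MRE11, had 9511, 10359 and 9916 normalized counts in shHBO1, against 9123, 9598 and 11448 in shCTRL. Values of both groups were interleaved, and the log2 fold change was -0.012 (SE 0.095, fold interval 0.851 to 1.16). Its paralog DYNLL2, with no 50-base window in common, averaged 5796 ± 132 in shHBO1 and 5573 ± 186 in shCTRL.

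SLFN11 had the largest estimate of the 10. The protein binds stressed replication forks and blocks them for good, and its absence is known to lower the response to PARP inhibitors. Normalized counts were 240.1, 252 and 195 in shHBO1, against 405, 392 and 216 in shCTRL. Controls 1 and 2 were well above each shHBO1 library, and control 3 fell between the shHBO1 values. SLFN11 averaged 229 ± 29.9 in shHBO1 and 338 ± 106 in shCTRL, a fold of 0.701 with an interval of 0.466 to 1.05 (log2 fold change -0.51, SE 0.25, limma adjusted p = 0.9999). With the replicate number as a block, the interval of the fold was 0.557 to 0.882. By library number, the log2 difference was -0.75, -0.64 and -0.15 for numbers 1, 2 and 3, so it was lower in 3 of 3 pairs, as were 17.1% of all tested genes. The labels state no pairing.

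SLFN11 was also compared between library numbers. Over both groups, SLFN11 in the number 3 libraries differed from the number 1 libraries by -0.60 on the log2 scale. Its difference between numbers did not pass (limma F test, adjusted p = 0.0788). In shHBO1, library 3 had 195 normalized counts beside 240.1 and 252. In shCTRL, library 3 had 216 beside 405 and 392, a larger step. Without shCTRL library 3 the log2 fold change of SLFN11 was -0.81 (limma adjusted p = 0.188), and without both number 3 libraries it was -0.70 (limma adjusted p = 0.136). Small p-values became more frequent over the whole table in these fits. Unadjusted limma p-values under 0.05 rose from 538 of 15173 genes to 2281 without shCTRL library 3 and 2174 without both number 3 libraries. The lower adjusted p-values of SLFN11, RIF1 and POLQ there are therefore not particular to these genes. None of the 10 genes passed for a difference between numbers, where 9.68% of all tested genes did. Control library 3 held the highest of the 6 values for MAD2L2, SHLD2, PARP1 and DYNLL1, and control library 1 the lowest for TP53BP1, SHLD2, PARP1, POLQ and DYNLL1. Such extremes were not counted over all tested genes, so they are not shown to be particular to these genes.

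By Euclidean distance between centred log2 profiles over the 6 libraries, the genes nearest to SLFN11 among 13219 with a mean of at least 50 were MTUS1, MAST1 and CRYBG2. MTUS1, the nearest at a distance of 0.0654, had 255, 263 and 206 normalized counts in shHBO1, against 438, 434 and 229 in shCTRL. Because it was chosen by distance over these same 6 libraries, MTUS1 repeats the order of groups and the low control library 3 of SLFN11 by selection. MTUS1 did not pass either (limma adjusted p = 0.9999).

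With the replicate number as a block, no call among the 10 genes changed. Unadjusted p-values under 0.05 were then found for SLFN11 and RIF1, which is 2 of 10 beside 11.3% of all tested genes. Their blocked limma adjusted p-values were 0.253 for SLFN11 and 0.377 for RIF1. In DESeq2 without the block, SLFN11 was likewise under 0.05 before adjustment and at an adjusted p of 0.9999 after it. TP53BP1, RIF1, SHLD1 and POLQ were higher in shHBO1 in each of the 3 numbered pairs, and MAD2L2 and SLFN11 lower in each; over all tested genes 15.3% were higher and 17.1% lower in all 3 pairs. For number 3 the log2 differences were small in 4 of these 6, at 0.0024 for TP53BP1, 0.012 for RIF1, 0.013 for POLQ and -0.0020 for MAD2L2.

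Levels were compared between genes per kilobase of transcript, with lengths of the matched GENCODE transcripts, which can differ from those counted by the authors. Normalized counts per kilobase were 13786 ± 588 in shHBO1 and 13962 ± 1705 in shCTRL for DYNLL1, the highest of the 10. PARP1 followed at 3770.4 ± 11.4 in shHBO1 and 3850.1 ± 416 in shCTRL, then MAD2L2 at 1523 ± 100.02 in shHBO1 and 1621 ± 23.4 in shCTRL, and RIF1 at 839.8 ± 9.81 in shHBO1 and 743 ± 87.1 in shCTRL. PARG, with a stand-in length of 4128 bases for 5 of its records, had 426 ± 45.3 in shHBO1 and 427 ± 10.8 in shCTRL, and SHLD2 had 354 ± 11.6 in shHBO1 and 359 ± 25.3 in shCTRL. These 6 genes stood apart from their neighbours in the order within each group. TP53BP1 and POLQ overlapped, at 149.8 ± 15.6 and 161 ± 2.49 per kilobase in shHBO1, and 147 ± 7.11 and 145 ± 15.1 in shCTRL. SHLD1 had 109.8 ± 8.1 in shHBO1 and 83.5 ± 9.93 in shCTRL. SLFN11 was the lowest of the 10 at 46.0 ± 6.07 in shHBO1 and 67.9 ± 21.4 in shCTRL, and in the controls its range overlapped that of SHLD1. Within shieldin the per-kilobase order was MAD2L2, SHLD2 and SHLD1, high to low, in both groups.

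The 10 genes were spread over 37 transcript records, of which 34 passed the filter. None passed the transcript-level test (smallest limma adjusted p = 0.9998, over 33630 tested transcripts, of which 0.00297% passed). Unadjusted p-values under 0.05 occurred for 5 of the 34 (14.7%), beside 3.76% of all tested transcripts. They lay in RIF1, PARG and SLFN11, and the way reads were divided between transcripts is unknown. Records of the same gene divide its reads, so the 34 are not independent and the 14.7% is not a test of the set.

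In RIF1 the record NM_001177665 had 746, 1165 and 781 normalized counts in shHBO1, against 447, 432 and 561 in shCTRL, with no overlap. Its log2 fold change was 0.88 (SE 0.22, limma adjusted p = 0.9998), and it made up 13.5% of RIF1 counts in shHBO1 and 8.16% in shCTRL. This record was named for its small unadjusted p, and groups without overlap were not counted over all tested transcripts. The main RIF1 record, NM_018151, overlapped between groups at 4354 ± 103 in shHBO1 and 4196 ± 633 in shCTRL. In PARG the record NM_001324381 averaged 344 ± 26.5 in shHBO1 and 496 ± 54.2 in shCTRL (log2 fold change -0.53, SE 0.16). NR_136752, a non-coding PARG record, averaged 120.1 ± 16.6 in shHBO1 and 50.3 ± 36.2 in shCTRL (log2 fold change 1.46, SE 0.54). Other PARG records varied widely between replicates, such as NM_001303486 with 31.8, 359 and 391 in shHBO1, against 464, 337 and 453 in shCTRL.

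In SLFN11 the records NM_001104590 and NM_001104589 had the unadjusted p-values under 0.05. They were named for these p-values, so their separation between groups is partly selected. NM_001104590 had 25.2, 56.0 and 26.1 normalized counts in shHBO1, against 115, 134 and 73.4 in shCTRL (log2 fold change -1.61, SE 0.48). NM_001104589 had 13.1, 43.8 and 9.65 in shHBO1, against 81.3, 73.0 and 66.1 in shCTRL (log2 fold change -1.98, SE 0.64). Both were below the controls in each shHBO1 library, while NM_152270 was level at 74.9 ± 27.6 in shHBO1 and 74.1 ± 64.2 in shCTRL, with 0 in control library 3. TP53BP1 had a single discordant value, 0.965 for NM_001141979 in shHBO1 library 3, beside 164 and 155 in the other shHBO1 libraries and 231, 258 and 212 in shCTRL, while the sum of its records stayed within the control range in that library.

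**Figure D3:**
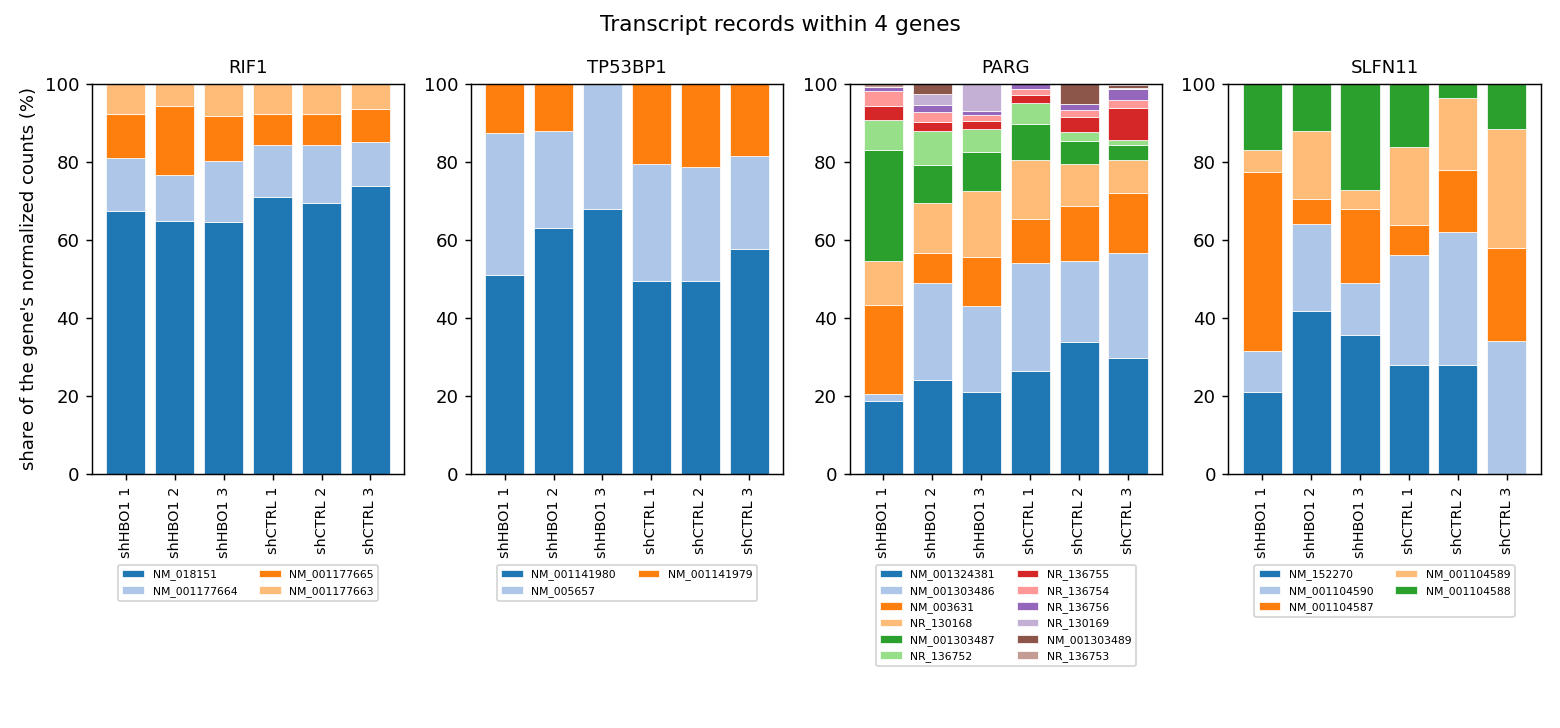
Share of each gene's normalized counts (vertical axis, %) held by each RefSeq transcript record in each library, for RIF1, TP53BP1, PARG and SLFN11. NM_001177665 holds 13.5% of RIF1 on average in shHBO1 and 8.16% in shCTRL, and shares within PARG and SLFN11 vary between libraries of the same group.

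The wider repair network was read through 8 lists with 92 distinct genes, of which 89 were tested. None passed over all genes, with or without the block, by limma or by DESeq2, and 1 of 89 (1.12%) had an unadjusted p under 0.05, beside 3.55% of all tested genes. Their median log2 fold change was -0.014, with 37 estimates above 0 and 52 below. Groups did not overlap in 8 of the 89 genes (8.99%), close to the background of 8.93%. The lists include the 10 genes themselves.

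Genes of the 53BP1 recruitment and shieldin-CST axis numbered 22, with 0 past the test in either direction, 11 estimates on each side of 0 and a median of 0.00060. PAXIP1, the BRCT-domain effector PTIP that binds 53BP1, had 1089, 1056 and 1043 normalized counts in shHBO1, against 1163, 1153 and 1275 in shCTRL, with no overlap (log2 fold change -0.17, SE 0.084, limma adjusted p = 0.9999). Histone variant gene H2AX had a log2 fold change of -0.091 and the ubiquitin ligase RNF168, which marks chromatin for 53BP1, -0.095.

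PARP enzymes and ADP-ribose turnover genes numbered 13, with 0 passing, 5 estimates above 0, 8 below and a median of -0.029. PARP2, the second DNA-dependent PARP and also a drug target, averaged 2681 ± 152 in shHBO1 and 2945 ± 154 in shCTRL (log2 fold change -0.14, 95% confidence interval -0.32 to 0.047). The mono-ADP-ribose hydrolase MACROD1 had -0.29 and the tankyrase TNKS2 -0.057.

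Of 13 classical non-homologous end joining genes 0 passed, with log2 fold changes from -0.26 to 0.18 and a median of -0.014. The gap-filling polymerase POLM had a log2 fold change of -0.26 (95% confidence interval -0.55 to 0.029), the kinase PRKDC 0.12 and the Ku-binding factor PAXX -0.074. Of 9 genes of polymerase theta end joining 0 passed, with 2 estimates above 0, POLQ among them, and 7 below. The scaffold XRCC1 had -0.089, the polymerase delta subunit POLD3 -0.10 and RHNO1, a partner of the checkpoint clamp, -0.042. Of 10 end resection genes 0 passed, with a median of -0.016, and RAD50 had 0.12, the helicases BLM -0.084 and WRN 0.099.

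Single-strand break and base excision repair had the lowest list median, -0.089 over 13 genes beside 0.000129 for all tested genes, with 9 estimates below 0 and 0 passing. The glycosylase OGG1 had 383, 373 and 378 normalized counts in shHBO1, against 411, 414 and 409 in shCTRL, narrow ranges with no overlap (log2 fold change -0.12, SE 0.10). The endonuclease APEX1 had -0.090 and the ligase LIG1 -0.11.

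Fork protection and other PARP inhibitor response genes had 13 of 14 tested and 0 passing, with a median of -0.0039. ABCB1, the drug efflux pump that can export PARP inhibitors, was below the filter. RADX, which binds single-stranded DNA at replication forks, had 86.0, 73.3 and 65.6 normalized counts in shHBO1, against 64.0, 48.7 and 58.7 in shCTRL, with no overlap (log2 fold change 0.39, SE 0.22). The methyltransferase KMT2D had 0.29 and the efflux pump ABCG2 -0.76, where control library 3 alone had 43.0 and the other 5 libraries 10.2 to 13.2 normalized counts.

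In the Schlafen family 4 of 6 genes were tested and 0 passed, with estimates above 0 for SLFN5 and SLFN12 and below 0 for SLFN11 and SLFN13. SLFN5 was the 1 listed gene with an unadjusted p under 0.05 (limma adjusted p = 0.9999). It had 3586, 3349 and 3413 normalized counts in shHBO1, against 3055, 2948 and 2851 in shCTRL, with no overlap and a log2 fold change of 0.22 (95% confidence interval 0.065 to 0.39). SLFN12 had 0.23 (95% confidence interval -0.085 to 0.55). SLFN13, which shares windows with SLFN11, averaged 2408 ± 264 in shHBO1 and 2556 ± 430.3 in shCTRL, a log2 fold change of -0.078.

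**Figure D4:**
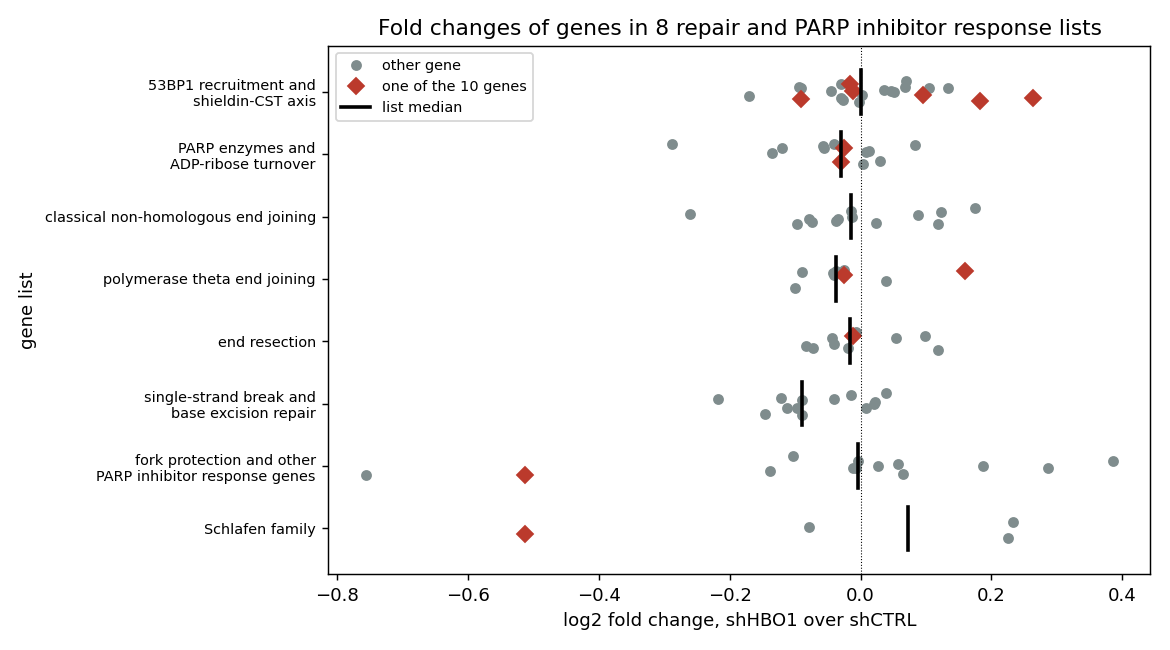
Log2 fold changes (horizontal axis, shHBO1 over shCTRL) of the tested genes in 8 lists of repair and PARP inhibitor response genes, with the 10 genes as diamonds, other genes as circles and each list's median as a bar. The list medians lie between -0.089 and 0.073, and 0 genes pass the test.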

How the data were processed

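RNA-seq was compared between 3 shHBO1 and 3 shCTRL libraries. The deposited signal values are read counts per RefSeq transcript (58215 rows) divided by a size factor per library. Per the submitters' processing notes, the tools and build were Bowtie 1.2.1.1, SAMtools, DESeq2 and hg19; which tool did what is not stated. Dividing each column by its smallest value above 0 gave whole reads for 100% of values (tolerance 0.01 read). Transcript rows were summed per gene with current RefSeq symbols (57191 rows) or GENCODE 29 (646); 378 unnamed rows, 0.0920 to 0.0977% of reads, were left out. As planned for normalized values, the test was limma-trend (limma 3.58.1, R 4.3.3) on log2(normalized count + 1) over 15173 genes, with Benjamini-Hochberg adjustment; fold changes on this scale understate changes of low genes. edgeR 4.0.16 and DESeq2 1.42.0 on recovered reads, other scalings, filters, pseudocounts and left-out libraries were alternatives, and the fits were tested on simulated data. In that simulation, which held no difference between library numbers, 200 genes with a mean of at least 50 were changed by 1 on the log2 scale. Limma recovered 69.5% of them and also called 3 unchanged genes. With the replicate number as a block limma recovered 49% and called 1 unchanged gene. DESeq2 recovered 88.5% and called 77 unchanged genes. The share with the block does not carry over to the real libraries, where 9.68% of genes differed between numbers. The main test was unpaired. The deviations of same-numbered libraries correlated at 0.324, 0.195 and 0.478 across genes for numbers 1, 2 and 3. Numbers were therefore treated as pairs only in the fits with a block and in the differences by library number, from these data and not from the labels. Numbers 1 and 2 were not clearly distinct, since shHBO1 1 and shCTRL 2 correlated at 0.206. Replicates differed by 12.9 to 71.6 chi-square per degree of freedom, far beyond sampling noise. The largest values, 71.6 and 46.1, were those of shCTRL library 3 against shCTRL libraries 1 and 2. Besides the 10 genes and KAT7, the text names the 3 genes of each list with the smallest p, the near-identical copies, TUBGCP4 (added when the search for shared windows found it), and the 3 profiles nearest to the most variable member. Genes, lists and tests were chosen with earlier results of these data known. Sequences and lengths came from GENCODE 29 transcripts.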

Additional observations from a re-analysis of the deposited data

How the results depend on the processing

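None of the 10 genes passed in any of the 18 alternatives run on each, and the smallest adjusted p among these 180 values was 0.136, for SLFN11 without the number 3 libraries. KAT7 passed in 18 of 18, with log2 fold changes from -2.16 to -1.98. TP53BP1, RIF1, MAD2L2, SHLD1, POLQ and SLFN11 kept the sign of their estimate in each alternative. With each library left out in turn, the log2 fold change ran from -0.053 to 0.042 for SHLD2, -0.088 to 0.060 for PARP1, -0.087 to 0.058 for PARG, -0.079 to 0.085 for DYNLL1 and -0.81 to -0.35 for SLFN11. It ran from 0.061 to 0.15 for TP53BP1, 0.12 to 0.28 for RIF1, -0.15 to -0.062 for MAD2L2, 0.17 to 0.31 for SHLD1 and 0.093 to 0.24 for POLQ. Leaving out shHBO1 library 1 or 3 for TP53BP1, shHBO1 library 3 for MAD2L2, shCTRL library 2 for SHLD1 or shCTRL library 1 or 3 for POLQ moved the estimate by over 1.5 times, as did shCTRL library 3 for RIF1 and SLFN11. The log2 PARG to PARP1 ratio difference ran from -0.078 to 0.080. Without the number 3 libraries of both groups the estimate was 0.014 for SHLD2, 0.059 for PARP1 and 0.085 for DYNLL1, opposite in sign to that over 6 libraries; fewer libraries entered these fits. Over all genes, 1 gene passed without the replicate block and 19 with it; edgeR with the block called 19, DESeq2 19 without it and 147 with it, and the cause was not tested. The block changed no call among the 10 genes. SHLD1 had the fewest reads of the 10, 73 to 107 per library, and the second widest interval after SLFN11, which had 202 to 419 reads.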
